A study of Gallus gallus with 8 samples.

Results

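The well-expressed long noncoding RNA (lncRNA) genes of engineered chick muscle are 143 of the 2304 lncRNA genes, and of the 17775 genes in all, in the deposited count table. They were chosen by their counts, as the genes of biotype lncRNA, off the mitochondrial genome and chromosome W, with a mean estimated count of at least 100 over the 8 tissues. The mean count chose them, so their levels are a description. The mean takes in both weeks, and a gene that differs between them can pass through the week in which it is high: 9 of the genes were under 100 counts on average at week 1 only and 6 at week 3 only, while 128 reached 100 in both weeks. The tissues were *Gallus gallus* skeletal muscle myotubes grown from thigh myoblasts of E10 chick embryos on gelatin-transglutaminase hydrogels, and they held no motor neurons. Serum in the medium was lowered to induce differentiation, and RNA was taken on day 7 after differentiation from 5 tissues (week 1, tissues 1-1 to 1-5) and on day 21 from 3 tissues (week 3, tissues 3-1 to 3-3). The myoblasts had been enriched by pre-plating and expanded before seeding. Whether the weeks shared a harvest is not given in the sources used here, so harvest and week cannot be told apart.

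lncRNAs are transcripts without a long open reading frame, and many are made by RNA polymerase II, capped, spliced, and polyadenylated like messenger RNAs. Some act in the nucleus on chromatin or on genes beside them, and others act in the cytoplasm, for example by binding microRNAs. In mouse and human myoblasts, single lncRNAs are known that help or delay differentiation. None of the 143 genes carried a symbol in the deposited tables. None was matched by Ensembl identifier to the RefSeq gene table, which is of another genome build, and matching by position was not tried. No gene here was therefore equated with a known lncRNA of another species. Each is given by its Ensembl identifier, its position (build GRCg6a per the submitters' processing notes), and the protein-coding genes listed beside it.

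The 143 genes lay on 31 chromosomes, with 60 of them on chromosomes 1 to 5, and their median span was 5037 bases (range, 1189 to 232287). The median mean count was 197.4, with 73 genes between 100 and 200 counts and 7 genes at 1000 or more. The nearest listed protein-coding gene was within 5000 bases for 94 of the 143. It lay on the same strand for 71 genes, pointed toward the lncRNA gene (convergent) for 33, pointed away from it (divergent) for 23, and overlapped it on the opposite strand for 16. The same-strand arrangement without overlap made up 49.7% of the lncRNA genes and 37.1% of 9665 protein-coding genes with the same minimum count. Further protein-coding genes, in 533 of 8894 tested pairs, overlapped their nearest one on the same strand, which 0 of the 143 genes did. The 4 microRNA rows of the table lay more than 5000 bases from every one of the 143 genes. Whether the counting used strand is not given in the sources used here, so reads of overlapping genes on opposite strands cannot be told apart. A count that is not whole can arise where reads are divided between features. All 8 values were whole for 112 of the 143 genes (78.3%) against 59.2% of the protein-coding genes, and 10 lncRNA genes had no whole value, so their levels are uncertain.

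Tissues held 14368710 to 18902561 estimated counts in total. The 143 genes together held 0.310% to 0.334% of these at week 1 and 0.314% to 0.319% at week 3. Tissue 1-1 stood apart at week 1. It was the highest or the lowest week 1 tissue for 108 of the 143 genes (75.5%), and for 70.6% of the protein-coding genes with the same minimum count. Of 5 skeletal muscle markers listed, 2 fell, *ACTA1* and *MYOD1*, and *DES* (desmin) had a mean FPKM-UQ of 4336 at week 1 and 4478 at week 3, while *CKM*, *TTN*, and *RYR1* had no matching row and were not analysed here. Markers of other cells moved between the weeks. Among 8 fibroblast markers, 1 rose and 4 fell, and their summed level was 21000 to 30800 CPM (counts scaled to a common library total) at week 1 and 23200 to 24100 at week 3. Among 4 macrophage markers, 3 fell, with summed levels of 52.3 to 89.6 and 34.4 to 37.0 CPM. Of the other markers tested, 1 of 3 endothelial, 2 of 3 chondrocyte, and 1 of 1 Schwann cell genes fell, and 1 of 4 adipocyte genes rose. The 3 neuron genes tested did not pass. Summed chondrocyte markers were at 35.0 to 49.2 and 18.1 to 21.0 CPM and summed adipocyte markers at up to 70.4 and 80.5 to 83.8 CPM, at week 1 and week 3. Their part in the lncRNA changes below was not tested, and in bulk RNA fewer cells of a type and less RNA per cell cannot be told apart.

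To compare the weeks, estimated counts were rounded and fitted with edgeR's quasi-likelihood test over all 14311 genes that passed its expression filter, which all 143 lncRNA genes did. A positive log2 fold change, given with its standard error (SE), stands for a higher level in the older tissues. Each edgeR adjusted p comes from this test with the Benjamini-Hochberg method over the whole table. At an adjusted p below 0.05, 13 lncRNA genes rose and 23 fell, and 107 did not pass. The 36 genes are 25.2% of the 143, against a background of 23.5% of all genes tested and 26.3% of protein-coding genes with the same minimum count. In the separate directions, 9.09% rose and 16.1% fell, against 11.5% and 12.0% of all genes tested and 12.4% and 13.9% of those protein-coding genes. Of the 128 genes that reached 100 counts in both weeks, 11 rose and 20 fell. The other called genes passed the count limit through the week in which they were high. They are ENSGALG00000049035, the largest rise, and ENSGALG00000053987 (week 3), and ENSGALG00000030111, ENSGALG00000049992, and ENSGALG00000053940 (week 1). The median log2 fold change of the 143 genes was −0.08, beside −0.0065 for all genes tested. The log2 fold change was beyond 1 in either direction for 4 of the 143 genes, ENSGALG00000049035 among them. The same held for 1053 of the 14311 genes tested and 286 of the 9665 protein-coding genes with the same minimum count. Without tissue 1-1, the same 36 genes and 25 further ones passed (22 higher and 39 lower, against 38.6% of all genes tested). Without tissue 3-3, 22 genes passed (7 higher and 15 lower, against 14.5% of all genes tested). With a fold change above 1.5 also asked for, 21 lncRNA genes passed (14.7%), against 11.5% of all genes tested. At an unadjusted p below 0.05 with that fold change, the thresholds of the study, 23 passed in edgeR (16.1%), against 14.6%. Every called gene named above that passed the count limit through the week in which it was high is in both counts. Neither share was recomputed without these genes, so both are a description. There was no overlap in FPKM-UQ between the weeks for 40 of the 143 genes (28.0%), 17 of them higher and 23 lower at week 3, against 29.9% of all genes tested (16.2% higher and 13.6% lower). Genes that passed the count limit through the week in which they were high, such as ENSGALG00000049035 and ENSGALG00000046322, are in this count too. FPKM-UQ is the authors' normalized signal, in which gene length does not enter, so levels were compared between weeks and not between genes.

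**Figure D1:**
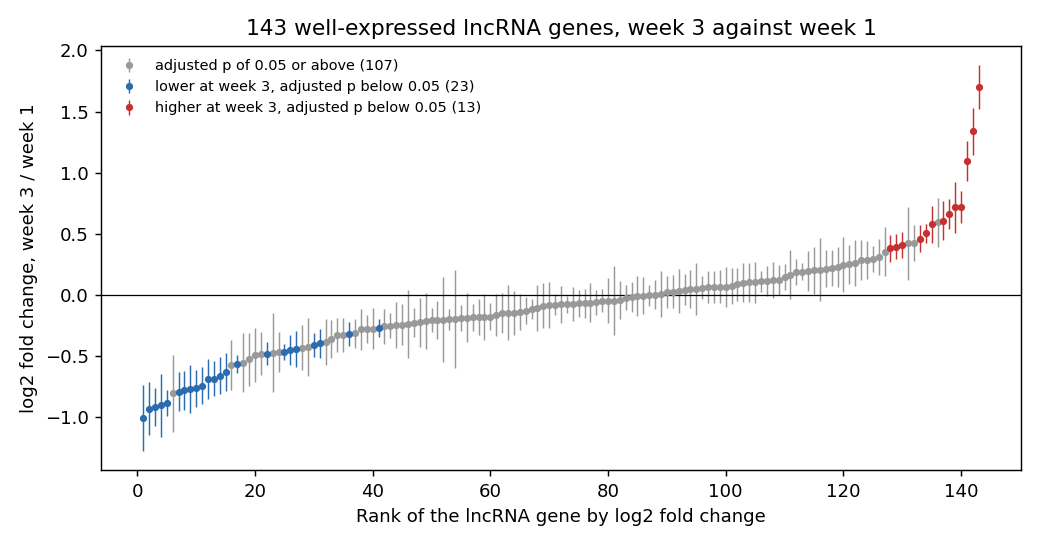
The log2 fold change of each of the 143 lncRNA genes (vertical axis, week 3 over week 1) is plotted against its rank, with bars for the standard error. The 23 genes called lower (blue) and the 13 called higher (red) lie toward the ends, with genes that did not pass among them. The range runs from −1.01 to 1.70.

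The largest rise was that of ENSGALG00000049035 (chromosome 1, 124584200 to 124610519, plus strand), which lies between *TMSB4X*, the gene of the actin-binding peptide thymosin beta 4, and *EGFL6*. Its FPKM-UQ was 3.69, 4.92, 3.30, 6.04, and 4.52 in tissues 1-1 to 1-5 and 13.6, 14.1, and 15.7 in tissues 3-1 to 3-3. Every week 3 tissue was more than double the highest week 1 tissue. The log2 fold change was 1.70 (SE 0.18, edgeR adjusted p = 4.8e-05), a ratio of 3.25. None of its 8 counts was whole, so its level is uncertain. *TMSB4X*, 38127 bases away, had a log2 fold change of −0.06 (edgeR adjusted p = 0.64). *EGFL6*, on the other side, fell, with no overlap between the weeks (log2 fold change −1.59, SE 0.28, edgeR adjusted p = 0.0017).

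ENSGALG00000050015 (chromosome 30, 1702698 to 1710557, minus strand) rose from 6.41, 14.7, 13.7, 12.9, and 14.3 FPKM-UQ in tissues 1-1 to 1-5 to 30.5, 31.6, and 32.4 in tissues 3-1 to 3-3. Tissue 1-1 was the lowest, and the weeks did not overlap. The log2 fold change was 1.34 (SE 0.20, edgeR adjusted p = 5.3e-04), and it was 1.17 without tissue 1-1. ENSGALG00000047014 (chromosome 8, 4727290 to 4742691, plus strand) rose from 18.3, 34.5, 29.9, 32.9, and 36.7 FPKM-UQ to 63.6, 65.4, and 67.9. Tissue 1-1 was again the lowest at week 1, and the log2 fold change was 1.10 (SE 0.16, edgeR adjusted p = 6.0e-04). This gene lies between *TADA1*, which encodes a subunit of a histone acetyltransferase complex, and *FASLG*, the gene of Fas ligand. *TADA1*, 7513 bases away on the same strand, had a log2 fold change of −0.06 (edgeR adjusted p = 0.80).

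ENSGALG00000045548 (chromosome Z, 25268534 to 25323157, minus strand) overlaps *MRPS27*, the gene of a mitochondrial ribosomal protein, on the opposite strand. Its FPKM-UQ was 25.5, 16.7, 25.2, 27.4, and 22.2 in the week 1 tissues and 37.9, 40.4, and 38.6 in the week 3 tissues, which were all higher. The log2 fold change was 0.72 (SE 0.13, edgeR adjusted p = 0.0021), beside 0.06 for *MRPS27* (edgeR adjusted p = 0.58). All counts of both genes were whole. *MAP1B* (chromosome Z, 25324362 to 25392656), which encodes a microtubule-associated protein and is the next protein-coding gene on the same strand, also rose, from 98.2 to 117.4 FPKM-UQ at week 1 to 148.3 to 159.9 at week 3 (log2 fold change 0.52, SE 0.08, edgeR adjusted p = 6.1e-04). ENSGALG00000019325 (chromosome 1, 49173031 to 49181295) averaged 10.1 FPKM-UQ (SD 1.26) in the 5 week 1 tissues and 16.1 FPKM-UQ (SD 1.08) in the 3 week 3 tissues, which is 1.58 times as high (SE 0.12 for a log2 fold change of 0.66, edgeR adjusted p = 0.0024). Its start lies 91 bases from that of ENSGALG00000028016, a protein-coding gene read in the other direction with a log2 fold change of 0.18 (edgeR adjusted p = 0.51).

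ENSGALG00000050475 (chromosome 1, 3908684 to 4026387) also rose, with a mean FPKM-UQ of 9.05 ± 2.62 (SD, n = 5) and then 14.9 ± 2.01 (SD, n = 3). Its call was lost without tissue 1-3, 3-1, 3-2, or 3-3, with edgeR adjusted p-values of 0.058 to 0.13. The remaining 7 genes that rose had ratios of 1.30 to 1.52 and are described with their neighbors or by their counts below.

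The largest fall was that of ENSGALG00000036306 (chromosome 2, 67390638 to 67439725, minus strand), between *GMDS*, an enzyme gene of GDP-fucose synthesis, and *MYLK4*, a myosin light chain kinase gene whose own log2 fold change turned from −0.03 (edgeR adjusted p = 0.95) to 0.21 without tissue 1-1 (edgeR adjusted p = 0.039). Its FPKM-UQ was 10.9, 32.3, 25.2, 29.2, and 25.7 in tissues 1-1 to 1-5 and 12.1, 11.1, and 13.9 in tissues 3-1 to 3-3. Tissue 1-1 lay below every week 3 tissue, and the other week 1 tissues lay above all of them. The log2 fold change was −1.01 (SE 0.27, edgeR adjusted p = 0.018), and it was −1.20 without tissue 1-1 (edgeR adjusted p = 7.1e-09). The call was lost without tissue 3-1 (edgeR adjusted p = 0.072) or 3-2 (edgeR adjusted p = 0.082).

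ENSGALG00000016441 (chromosome 3, 96498135 to 96502627, minus strand) lies between *KLF11*, a transcription factor gene, and *RRM2*, a ribonucleotide reductase subunit gene. It fell from 11.4, 25.7, 21.6, 23.9, and 23.8 FPKM-UQ to 11.8, 11.2, and 10.9, and tissue 1-1 lay within the range of week 3. This was a log2 fold change of −0.93 (SE 0.22, edgeR adjusted p = 0.0087) and −1.09 without tissue 1-1. *KLF11*, 3658 bases away, had a log2 fold change of −0.08 (edgeR adjusted p = 0.76), and it too was lowest at week 1 in tissue 1-1, at 11.2 FPKM-UQ against 17.6 to 18.7 in the others.

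ENSGALG00000030111 (chromosome 2, 44767691 to 44772484) fell from 4.77, 11.1, 7.15, 8.09, and 10.5 FPKM-UQ to 5.36, 3.86, and 4.25, with tissue 1-1 again among the week 3 tissues. This was a log2 fold change of −0.90 (SE 0.26, edgeR adjusted p = 0.026). The mean count was 122.4 at week 1 and 78.0 at week 3, so the gene passed the count limit through week 1.

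In 2 further large falls the weeks did not overlap. ENSGALG00000049883 (chromosome 33, 6324924 to 6330288) fell from 21.2, 26.3, 21.7, 23.0, and 23.8 FPKM-UQ to 11.6, 12.3, and 14.3, a log2 fold change of −0.88 (SE 0.11, edgeR adjusted p = 1.6e-04). This is the smallest adjusted p among the 23 genes that fell, and leaving out single tissues gave log2 fold changes of −0.97 to −0.82. ENSGALG00000051419 (chromosome Z, 27317307 to 27383989, minus strand), which lies between *SLC1A1* and *CDC37L1*, fell from 12.5, 16.8, 15.2, 15.4, and 14.1 FPKM-UQ to 5.98, 8.72, and 9.21, a log2 fold change of −0.92 (SE 0.16, edgeR adjusted p = 0.0015).

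Among the other genes that fell most, ENSGALG00000047997 (chromosome 3), ENSGALG00000046846 (chromosome 9), and ENSGALG00000054429 (chromosome 6) had log2 fold changes of −0.79, −0.78, and −0.76. Each kept its call with every tissue left out in turn. ENSGALG00000054429 lies 9337 bases from *PCGF5*, a Polycomb group gene with a log2 fold change of 0.12 (edgeR adjusted p = 0.46). ENSGALG00000046846 lies between *TSC22D2* and *PFN2*, the gene of the actin-binding protein profilin 2. ENSGALG00000053940 (chromosome 17) had a log2 fold change of −0.77 and lost its call without tissue 3-3 (edgeR adjusted p = 0.076). It too passed the count limit through week 1, with mean counts of 124.6 at week 1 and 85.7 at week 3. The 13 genes that fell outside the 10 largest falls had log2 fold changes from −0.69 to −0.27.

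**Figure D2:**
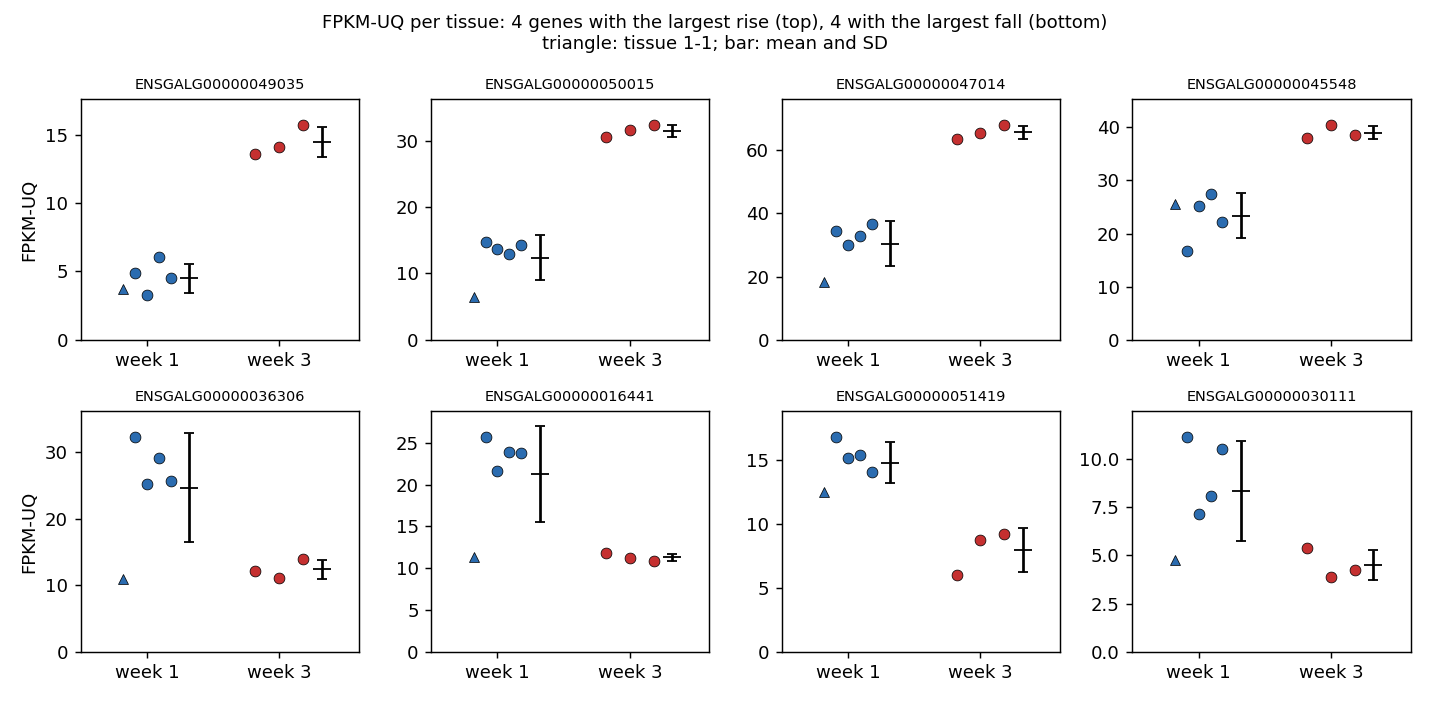
FPKM-UQ of each tissue (vertical axis, from 0) at week 1 (blue) and week 3 (red) for the 4 lncRNA genes with the largest rise (top) and the 4 with the largest fall (bottom), with the mean and SD at the right of each group. Tissue 1-1 (triangle) sits at the level of the week 3 tissues for ENSGALG00000036306, ENSGALG00000016441, and ENSGALG00000030111, and below the other week 1 tissues for ENSGALG00000050015 and ENSGALG00000047014.

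The gene with the highest mean count was ENSGALG00000052619 (chromosome 23, 98821 to 106255, minus strand), with a mean of 3648 counts. Its FPKM-UQ was 220.2, 191.3, 184.2, 201.5, and 176.9 in tissues 1-1 to 1-5 and 289.7, 274.6, and 273.3 in tissues 3-1 to 3-3. All week 3 tissues were higher, with a log2 fold change of 0.50 (SE 0.08, edgeR adjusted p = 7.0e-04). None of its counts was whole. ENSGALG00000049015, which lies 2633 bases away on chromosome 23 and on the other strand, had the third highest mean count. Its weeks overlapped, at 117.2 to 151.7 and 126.7 to 144.3 FPKM-UQ, with a log2 fold change of −0.08 (edgeR adjusted p = 0.55).

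The second highest mean count, 2727, was that of ENSGALG00000053627 (chromosome 5, 24775543 to 24783366, plus strand), between *CHP1* and *OIP5*. It fell from 208.3, 211.1, 184.3, 201.8, and 181.5 FPKM-UQ to 142.9, 132.7, and 128.8. The weeks lay well apart, and the log2 fold change was −0.56 (SE 0.08, edgeR adjusted p = 2.9e-04). Only 1 of its 8 counts was whole. ENSGALG00000029680 (chromosome 12), the seventh by count, averaged 97.2 FPKM-UQ (SD 12.0) in the 5 week 1 tissues and 70.5 FPKM-UQ (SD 2.89) in the 3 week 3 tissues, and it fell (log2 fold change −0.48, SE 0.10, edgeR adjusted p = 0.0040). ENSGALG00000033282 (chromosome 6, 35257619 to 35260427), between *EBF3* and *GLRX3*, was chosen after its values were seen. The 5 week 1 tissues averaged 59.3 FPKM-UQ (SD 1.99) and the 3 week 3 tissues 43.4 FPKM-UQ (SD 2.20), a log2 fold change of −0.47 (SE 0.07, edgeR adjusted p = 5.1e-04).

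Of the 10 lncRNA genes with the highest mean count, 4 passed the test in all, and the other 6 had log2 fold changes from −0.20 to 0.19. Several of these turned on tissue 1-1. ENSGALG00000037124 (chromosome 2) was at 69.3 FPKM-UQ in tissue 1-1, at 97.0 to 100.5 in the other week 1 tissues, and at 79.5 to 85.4 at week 3. Its log2 fold change was −0.18 (edgeR adjusted p = 0.27) with all tissues and −0.27 without tissue 1-1 (edgeR adjusted p = 4.0e-04). None of its counts was whole, so its level is uncertain. ENSGALG00000048674 (chromosome 1), between *BCAT1* and *SOX5*, and ENSGALG00000052055 (chromosome 3), 12856 bases from *SYNCRIP*, an RNA-binding protein gene, did not pass with all tissues and passed without tissue 1-1. Their log2 fold changes then were −0.22 and 0.22 (edgeR adjusted p = 0.018 and 0.0058).

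To describe the surroundings of the lncRNA genes, each was set beside the nearest protein-coding gene listed, and 132 of these neighbors were tested. The log2 fold changes had the same sign in 80 of 132 pairs (60.6%). Among protein-coding genes with the same minimum count and their own nearest protein-coding genes, 54.9% of 8894 pairs had the same sign. Within 5000 bases and without overlap, the same sign was found in 53 of 76 lncRNA pairs (69.7%) and in 54.5% of 4539 protein-coding pairs. In overlapping pairs on opposite strands, it was found in 6 of 14, against 57.0% of 1129 protein-coding pairs. In convergent pairs it was found in 22 of 30 (73.3%), against 52.2% of 2019. In same-strand pairs, the largest class, it was found in 38 of 67 (56.7%), against 53.5% of 3267. In divergent pairs it was found in 14 of 21 (66.7%), against 57.25% of 1946. With gaps over 50000 bases, the same sign was found in 7 of 11 lncRNA pairs (63.6%). Whether distance plays a part was not tested. The Pearson correlation of the log2 fold changes was 0.23 over the 132 pairs and 0.17 over the protein-coding pairs, and both genes of a pair were measured in the same libraries. The difference between lncRNA and protein-coding pairs was not tested, since pairs are not replicates. Of the 34 lncRNA genes called with a tested neighbor, 15 had a neighbor that was also called, 11 in the same direction (73.3%) and 4 in the opposite one. That is 44.1% with a called neighbor, against 25.7% of 2325 called protein-coding genes, of whose 598 pairs 70.1% moved in the same direction. The pairs that moved together include ENSGALG00000053987, ENSGALG00000030111, and ENSGALG00000049992, which passed the count limit through the week in which they were high. These shares were not recomputed without them, so they are a description.

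**Figure D3:**
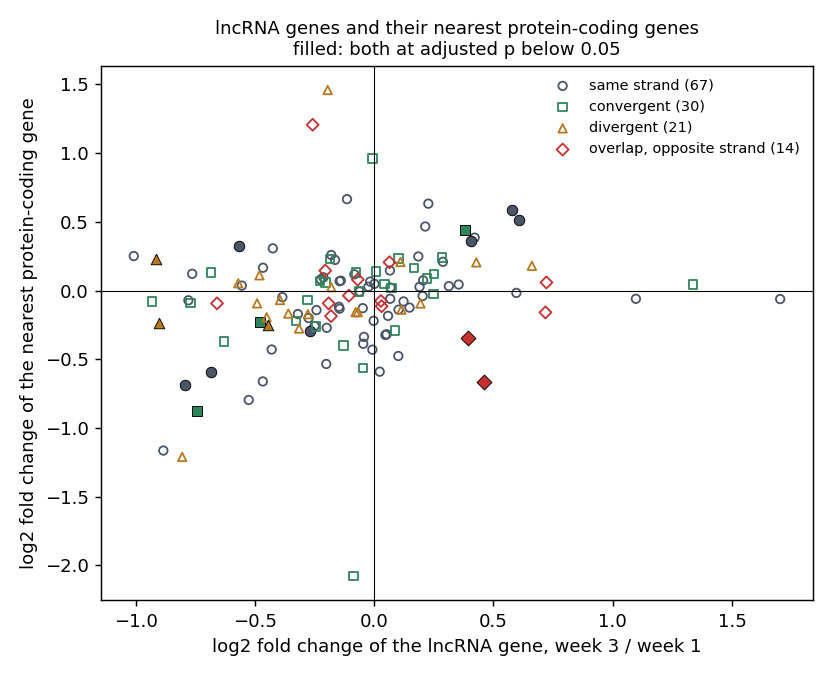
Each point is 1 of 132 lncRNA genes, with its log2 fold change on the horizontal axis and that of its nearest tested protein-coding gene on the vertical axis. Symbols show the arrangement on the chromosome, and filled symbols are the 15 pairs with both genes at an adjusted p below 0.05, of which 11 lie in the quadrants of equal sign.

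In 4 pairs the lncRNA gene and its neighbor rose together, and their neighbors include genes of growth and the cell cycle. *IGF2* (chromosome 5, 13971786 to 13980128), the gene of an insulin-like growth factor, lies 4043 bases from ENSGALG00000051551, with the gene ends facing each other. The lncRNA gene was at 10.2, 9.08, 8.30, 10.2, and 10.2 FPKM-UQ at week 1 and at 12.4, 12.3, and 12.9 at week 3. *IGF2* was at 23.5, 21.99, 25.4, 22.8, and 21.6 at week 1 and at 31.4, 30.6, and 33.0 at week 3. For both genes all week 3 tissues were higher, with log2 fold changes of 0.38 (SE 0.11, edgeR adjusted p = 0.032) and 0.44 (SE 0.08, edgeR adjusted p = 0.0024). The call of the lncRNA gene was lost without tissue 1-2, 1-3, 3-1, 3-2, or 3-3 (edgeR adjusted p of 0.064 to 0.11), and its log2 fold changes in these fits were 0.33 to 0.39.

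*CCND1* (chromosome 5, 17778656 to 17793544), which encodes cyclin D1 of the G1 phase, lies 41910 bases downstream of ENSGALG00000051988, which spans 17504459 to 17736745 on the same strand. The lncRNA gene rose from 5.49, 6.31, 7.21, 8.63, and 6.19 FPKM-UQ to 10.2, 10.4, and 9.92, a log2 fold change of 0.58 (SE 0.15, edgeR adjusted p = 0.017). *CCND1* rose from 73.8, 59.3, 57.4, 60.1, and 53.3 FPKM-UQ to 95.7, 87.6, and 92.9, also a log2 fold change of 0.58 (SE 0.10, edgeR adjusted p = 0.0011). At week 1, tissue 1-1 was the lowest for the lncRNA gene and the highest for *CCND1*, while among the other tissues 1-4 was the highest and 1-5 the lowest for both genes. Without any 1 of the week 3 tissues, 3-1, 3-2, or 3-3, the edgeR adjusted p of the lncRNA gene was 0.053 to 0.067.

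ENSGALG00000053987 (chromosome 2, 124482268 to 124500607) lies 14033 bases from *TMEM64*, a transmembrane protein gene, on the same strand. The lncRNA gene rose from 6.80, 4.96, 5.33, 6.15, and 4.70 FPKM-UQ to 9.18, 7.78, and 8.74, and *TMEM64* rose from 85.4 to 114.5 FPKM-UQ at week 1 to 137.7 to 150.8 at week 3. Their log2 fold changes were 0.61 (SE 0.16, edgeR adjusted p = 0.016) and 0.51 (SE 0.09, edgeR adjusted p = 0.0014). The call of the lncRNA gene was lost without tissue 3-1 or 3-3 (edgeR adjusted p = 0.078 and 0.062). This gene passed the count limit through week 3, with mean counts of 83.0 at week 1 and 148.7 at week 3.

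*MYC* (chromosome 2, 139734098 to 139738744), a transcription factor gene of cell growth, is followed 56330 bases downstream on the same strand by ENSGALG00000033453 (139795075 to 139828980), a pair chosen after its values were seen. The lncRNA gene rose from 9.87, 9.86, 9.27, 9.70, and 10.8 FPKM-UQ to 12.9, 13.7, and 13.1. *MYC* rose from 33.9, 29.1, 33.3, 32.5, and 26.8 FPKM-UQ to 39.5, 42.7, and 38.6. In both, the week 3 tissues lay above all week 1 tissues, with log2 fold changes of 0.41 (SE 0.11, edgeR adjusted p = 0.015) and 0.36 (SE 0.09, edgeR adjusted p = 0.015). Both calls were lost without tissue 3-2 (edgeR adjusted p = 0.072 and 0.083), and that of the lncRNA gene was at the threshold without tissue 3-3 (edgeR adjusted p = 0.050).

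In 7 pairs the lncRNA gene and its neighbor fell together. ENSGALG00000049992 (chromosome 4, 50375137 to 50376558) lies 2284 bases beyond the end of *SLC4A4*, a sodium bicarbonate cotransporter gene. The lncRNA gene fell from 10.5, 8.94, 8.23, 9.77, and 8.11 FPKM-UQ to 5.47, 6.13, and 4.96, and *SLC4A4* fell from 23.5, 15.2, 18.5, 17.7, and 15.8 FPKM-UQ to 9.75, 9.16, and 11.2. The weeks did not overlap for either gene. The log2 fold changes were −0.74 (SE 0.15, edgeR adjusted p = 0.0039) and −0.88 (SE 0.15, edgeR adjusted p = 0.0017), and both calls held with every tissue left out in turn. The lncRNA gene averaged 135.4 counts at week 1 and 94.7 at week 3, so it passed the count limit through week 1.

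ENSGALG00000053624 (chromosome 25, 2645368 to 2658858) ends 83 bases before *BCAN*, the gene of the matrix proteoglycan brevican, on the same strand. It was at 157.8, 120.8, 89.8, 98.5, and 98.2 FPKM-UQ at week 1 and at 66.9, 72.4, and 73.8 at week 3. *BCAN* was at 42.2, 58.2, 60.9, 62.1, and 72.8 FPKM-UQ at week 1 and at 38.3, 41.6, and 39.1 at week 3. Both fell, with log2 fold changes of −0.69 (SE 0.16, edgeR adjusted p = 0.0094) and −0.59 (SE 0.14, edgeR adjusted p = 0.0083). Among the week 1 tissues, 1-1 was the highest for the lncRNA gene and the lowest for *BCAN*. Without tissue 3-1 the edgeR adjusted p of the lncRNA gene was 0.051.

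In 4 of the other 5 pairs that fell together, calls were lost with single tissues left out. ENSGALG00000030111 fell with *PDCD6IP*, a gene of the membrane-cutting ESCRT machinery (log2 fold changes of −0.90 and −0.23), ENSGALG00000030849 with *MVP*, the major vault protein gene (−0.44 and −0.25), and ENSGALG00000029680 with *RAB43*, a small GTPase gene (−0.48 and −0.23). The calls of *PDCD6IP*, *MVP*, *RAB43*, ENSGALG00000030111, and ENSGALG00000030849 were each lost when single tissues were left out, among them 3-2 and 3-3 for all 5 genes. ENSGALG00000029680 kept its call in each of these fits. The neighbors of ENSGALG00000047997 and ENSGALG00000046938 carry only Ensembl identifiers, with log2 fold changes of −0.69 and −0.30, beside −0.79 and −0.27 for the lncRNA genes. The neighbor of ENSGALG00000047997 lies 79892 bases away. *CLVS2*, on the other side of that lncRNA gene and with a mean count of 29.1, rose (log2 fold change 2.03, SE 0.26, edgeR adjusted p = 2.0e-04). ENSGALG00000046938 lost its call without tissue 3-2 (edgeR adjusted p = 0.10) or 3-3 (edgeR adjusted p = 0.065).

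In 4 pairs the genes moved in opposite directions, and 2 of these overlap on opposite strands. ENSGALG00000046971 (chromosome 30, 553832 to 556652) lies within the span of *C3*, the gene of complement component 3. The lncRNA gene rose from 13.7, 15.0, 19.01, 16.7, and 17.4 FPKM-UQ to 22.3, 23.2, and 22.4, while *C3* fell from 42.0, 49.9, 43.4, 43.5, and 52.4 FPKM-UQ to 27.3, 29.3, and 31.8. The weeks did not overlap for either gene, and the log2 fold changes were 0.46 (SE 0.11, edgeR adjusted p = 0.010) and −0.66 (SE 0.10, edgeR adjusted p = 4.6e-04). All 8 counts of the lncRNA gene were whole, and 2 of those of *C3* were. The listed span of *C3* (491364 to 674579) also holds *EVI5L*, the next protein-coding gene on the strand of the lncRNA gene. *EVI5L* fell as well (log2 fold change −0.43, SE 0.09, edgeR adjusted p = 0.0068).

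ENSGALG00000049889 (chromosome 2, 76571183 to 76575215) overlaps the start of *TRIO*, a guanine nucleotide exchange factor gene read in the other direction, with starts 866 bases apart. The lncRNA gene rose from 15.5, 17.1, 19.4, 17.6, and 16.0 FPKM-UQ to 21.6, 21.4, and 25.2, a log2 fold change of 0.39 (SE 0.10, edgeR adjusted p = 0.016). *TRIO* fell from 309.1, 244.6, 219.0, 240.9, and 219.3 FPKM-UQ to 203.7, 196.9, and 188.4, a log2 fold change of −0.34 (SE 0.11, edgeR adjusted p = 0.039). The weeks did not overlap for either gene, and tissue 1-1 was far above the others for *TRIO*. The call of the lncRNA gene was lost without tissue 3-3 (edgeR adjusted p = 0.095), and that of *TRIO* without tissue 1-2, 1-4, 3-1, 3-2, or 3-3 (edgeR adjusted p of 0.062 to 0.15).

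The other opposite pairs did not overlap. *CHP1*, which encodes a calcium-binding partner of sodium-proton exchangers, rose from 92.8 to 104.1 FPKM-UQ at week 1 to 122.4 to 125.6 at week 3 (log2 fold change 0.33, SE 0.06, edgeR adjusted p = 0.0023). ENSGALG00000053627, 1840 bases beyond it on the same strand, fell as given above. *CDC37L1*, a gene related to an Hsp90 cochaperone, had a log2 fold change of 0.23 (edgeR adjusted p = 0.049), opposite to the fall of ENSGALG00000051419, 60549 bases away. The call of *CDC37L1* was lost when any single tissue other than 1-1 was left out (edgeR adjusted p of 0.062 to 0.18).

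**Figure D4:**
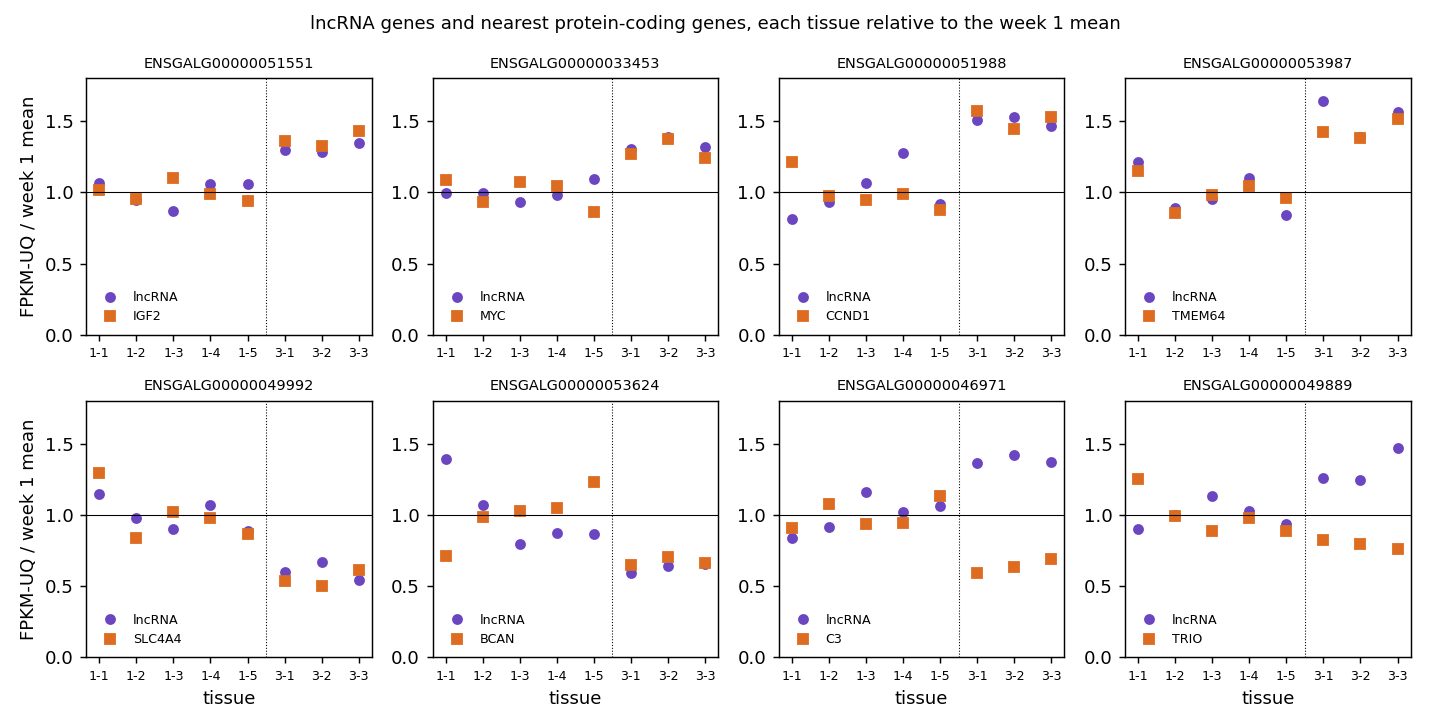
FPKM-UQ of each tissue divided by the week 1 mean of the same gene (vertical axis, from 0) for 8 lncRNA genes (circles, named above each panel) and their nearest protein-coding genes (squares), with the dotted line between week 1 and week 3. The pairs of *IGF2*, *MYC*, *CCND1*, and *TMEM64* sit above 1 at week 3, those of *SLC4A4* and *BCAN* below 1, and those of *C3* and *TRIO* on opposite sides.

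In 8 lncRNA genes that did not overlap their nearest protein-coding gene, the starts of the 2 genes lay within 1000 bases and were read in opposite directions. This limit was set after the data were seen, and it was applied to pairs without overlap only. Such pairs have the arrangement of divergent transcription, in which RNA polymerase II leaves a start region in both directions. They made up 5.59% of the lncRNA genes and 10.3% of the protein-coding genes with the same minimum count. In 7 of the 8 pairs the log2 fold changes had the same sign, against 57.4% of 982 protein-coding pairs of this kind. The 7 include ENSGALG00000046322, with mean counts of 83.4 at week 1 and 131.7 at week 3, and ENSGALG00000030111, with 122.4 and 78.0. Both passed the count limit through the week in which they were high. The share was not recomputed without them, so it is a description. The closest was ENSGALG00000046322, whose start lies 20 bases from that of *UCK1*, a uridine-cytidine kinase gene. Its log2 fold change was 0.43 (edgeR adjusted p = 0.055, and 0.034 without tissue 1-1), beside 0.21 for *UCK1* (edgeR adjusted p = 0.034), and the call of *UCK1* was lost when any single tissue other than 1-1 was left out. In the other pairs with named neighbors, the values were −0.31 for ENSGALG00000043925 (edgeR adjusted p = 0.077, and 0.014 without tissue 1-1) beside −0.28 for *OAZ1*, 0.11 beside 0.21 for *TRAPPC3*, and 0.19 beside −0.09 for *RALGAPB*, besides *PDCD6IP* and *MVP* above. Both genes were called in 2 of the 8 pairs. Overlapping pairs on opposite strands with starts within 1000 bases are not in this count. Their signs were equal for the neighbors *FTL* and *OSER1* and opposite for *TRIO*, *SPARC*, and *WFDC2*.

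Some of the 143 genes lay beside each other. In 8 pairs they were within 50000 bases of one another, and 5 of these pairs had the same sign. Among the 8 pairs, ENSGALG00000051373 and ENSGALG00000054354 cover nearly the same stretch of chromosome 4 on the same strand (9528445 to 9531664 and to 9531666). None of their counts was whole, so their levels and their log2 fold changes of −0.24 and 0.26 (edgeR adjusted p = 0.58 and 0.34) are uncertain. On chromosome Z, ENSGALG00000050012 and ENSGALG00000051419 lie 9857 bases apart on the same strand. The former was at 5.82, 6.03, 5.995, 7.76, and 5.69 FPKM-UQ at week 1 and at 7.06, 7.90, and 7.09 at week 3, a log2 fold change of 0.22 (edgeR adjusted p = 0.32), beside −0.92 for the latter. On chromosome 8, ENSGALG00000047014 rose, while ENSGALG00000051113, 19560 bases further on the same strand, was at 60.2 to 100.1 FPKM-UQ at week 1 and 89.0 to 99.0 at week 3. The difference between such genes was not tested, and these pairs were chosen after their values were seen.

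Just inside the count limit, ENSGALG00000046322 had a mean count of 101.5 and ENSGALG00000033758 one of 100.9. Just outside it, ENSGALG00000048488 had 99.2 and ENSGALG00000046857 had 98.9. ENSGALG00000048488 rose, with no overlap between the weeks (log2 fold change 0.77, SE 0.23, edgeR adjusted p = 0.030). The count limit alone keeps it out of the largest rises given above. ENSGALG00000046857 had a log2 fold change of −0.28 (edgeR adjusted p = 0.20). Below the limit lay 2161 lncRNA genes, of which 710 passed the expression filter and 92 (13.0%) were called, 50 higher (7.04%) and 42 lower (5.92%). Their log2 fold changes were wider, with a median size of 0.43 against 0.23 for the 143 genes and 0.17 for protein-coding genes with a mean count of at least 100, and their counts were lower.

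Most genes of the nuclear machinery that processes, retains, or degrades noncoding transcripts did not pass the test. Of 39 genes on this list, 33 were tested and 2 fell, against 23.5% of all genes called in either direction, with a median log2 fold change of −0.01 beside −0.0065 for all genes tested. The genes that fell are 2 of 7 listed genes of the m6A pathway, which methylates adenosines in RNA. *YTHDC1*, its nuclear reader, was at −0.35 (SE 0.08, edgeR adjusted p = 0.0078). *WTAP*, a subunit of the methyltransferase complex, was at −0.27 (SE 0.07, edgeR adjusted p = 0.013). The other 5 m6A genes did not pass the test, with log2 fold changes from −0.02 (*RBM15*) to 0.12 (*VIRMA*). The paraspeckle protein genes *SFPQ*, *NONO*, *PSPC1*, and *RBM14* had log2 fold changes from −0.0021 to 0.03 and did not pass the test. The same held for the 11 tested genes of the nuclear exosome and its adaptors, from −0.24 to 0.18, for 6 genes of microRNA processing, and for 3 Polycomb genes.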

How the data were processed

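RNA of 8 chick muscle tissues was sequenced by the authors on an Illumina NovaSeq and processed in Partek Flow. The submitters' processing notes name STAR 2.7.3a and the builds galGal6 and GRCg6a, and the counting method is not given in the sources used here. Deposited were estimated gene counts that the authors had not normalized (17775 rows, 80.98% of values whole) and a normalized signal called FPKM-UQ (15394 rows). In each tissue, adding 1 to the estimated count and dividing by a constant gave the deposited signal (largest deviation, 0.000787%). End positions are the deposited stop minus 1, since stop minus start equals the RefSeq length for 9 of 10 mitochondrial genes matched by symbol.

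The quasi-likelihood test of edgeR 4.0.16 was run on rounded counts of all genes (TMM, filterByExpr, R 4.3.3) and was tested on simulated data. Summaries used Python 3.11.15, pandas 2.3.3, and numpy 2.4.6. The alternatives tried included upper-quartile factors, DESeq2 1.42.0, other filters and count limits, a replicate block, limma 3.58.1 on log2 of the deposited signal with pseudocounts of 1 and 0.1, and each tissue left out in turn. Tissues were separate samples of a week by their labels, and p-values measure only the spread between these samples. The lncRNA genes, lists, and tests were chosen with earlier results of these data known. Named were the 10 genes with the highest mean count, the 10 largest rises and 10 largest falls among called genes, pairs within 5000 bases with both genes called, and genes beside the count limit. A gene named outside this rule is said to be so. Neighbors are the nearest protein-coding genes listed in the count table. Total counts of 14368710 to 18902561 per tissue limit the precision of genes near 100 counts.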

Additional observations from a re-analysis of the deposited data

Results flagged for a closer look

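Values at week 1 were examined for a single tissue far from the other 4 in 58 sets of values (most named genes and the summed share). Chance gives such a flag in about 1 of 20 single sets, but the sets share the same tissues and are not independent. Some named neighbors were not examined. Among these, tissue 1-1 was far above the others for *MYLK4* (56.3 FPKM-UQ against 26.9 to 31.9), *EGFL6* (9.55 against 5.42 to 6.19), and *TSC22D2* (75.0 against 58.3 to 61.7). In the 58 sets there were 9 flags, and 7 of them fell on tissue 1-1. Tissue 1-1 was far below the others for ENSGALG00000037124 (69.3 FPKM-UQ against 97.0 to 100.5), ENSGALG00000049070 (49.6 against 61.6 to 64.5), ENSGALG00000050015 (6.41 against 12.9 to 14.7), ENSGALG00000016441 (11.4 against 21.6 to 25.7), and *KLF11* (11.2 against 17.6 to 18.7). It was far above the others for *TRIO* (309.1 against 219.0 to 244.6) and for the share of counts held by the 143 lncRNA genes (0.334% against 0.310% to 0.317%). Tissue 1-4 was flagged as above the others for ENSGALG00000050012 (7.76 against 5.69 to 6.03) and *MRPS27* (32.1 against 30.2 to 30.6). None of the counts of ENSGALG00000037124 was whole, so its level is uncertain. A flag is set by the gap relative to the range of the 5 tissues. For *MRPS27* the spread was narrow, with a week 1 mean of 30.75 (SD 0.77), so the gap itself was small.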

How the results depend on the processing

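With other tools, factors, and filters, 35 to 40 lncRNA genes were called, against 18.4% to 27.1% of all genes in the same fits. None of the 36 called genes changed sign under any alternative fit. The count was 22 to 61 with each tissue left out in turn, 57 of 259 genes with a minimum mean count of 50, and 20 of 70 with a minimum of 200. It was 23 at an unadjusted p below 0.05 with a fold change above 1.5 (edgeR), against 14.6% of all genes tested. At an adjusted p below 0.05 with that fold change, it was 21 (edgeR), against 11.5%. Same-numbered tissues did not deviate together (correlations of 0.017, −0.0071, and −0.00099), and with the replicate number as a block 25 genes were called (17.5%, against 14.5% of all genes), 23 of them among the 36. The share of pairs with the same sign was 56.5% to 63.6% with each tissue left out in turn and 60.6% with the replicate block. The summed share of counts was on average 0.318% at week 1 and 0.317% at week 3, 0.3377% and 0.3325% without the mitochondrial genome, and 0.314% to 0.320% and 0.315% to 0.318% with each tissue left out in turn. Without tissue 1-1, the sign turned for 13 of the 143 genes, none of them called with or without it, with log2 fold changes of −0.21 to 0.07 in all tissues. Among the genes followed under each alternative, these directions turned. ENSGALG00000049070, at −0.0023 on the log2 scale, was at 0.0184 and 0.0180 with limma (pseudocounts of 0.1 and 1), 0.0046 with the minimum count, 0.0472 with the replicate block, 0.0099 with upper-quartile factors, and −0.0636 to 0.0185 with each tissue left out. With the replicate block, *KLF11* was at 0.0482 and *TADA1* at 0.0157. With each tissue left out, ENSGALG00000033758 was at −0.124 to 0.0211 and ENSGALG00000051113 at −0.041 to 0.116. The recomputed shares of counts and of pairs were added after the data were seen. The causes were not tested. The 8 tissues and the spread of tissue 1-1 limit what can be called.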
